A study of Mus musculus with 22 samples.

Results

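The Dcir and Dectin-2 lectin cluster is a run of related C-type lectin receptor genes on mouse chromosome 6. Its members were chosen by name and are Clec4a1, Clec4a2, Clec4a3, Clec4a4, Clec4b1, Clec4d, Clec4e and Clec4n, 8 of the 34047 genes in the count table. All 8 passed the filter on low counts in every RNA comparison. They lie between positions 122921848 and 123289870 of chromosome 6 (GRCm38), a span of 368023 bases, with 7 on the plus strand and Clec4e on the minus strand. Of 177956 accessible windows in the chromatin data, 48 lay within this span or within 10000 bases of its ends.

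RNA-seq had been run on dendritic cells (DCs) sorted from spleen (9 libraries) and mesenteric lymph nodes (MLN, 7 libraries), and ATAC-seq, which reads open chromatin by transposase insertion, on splenic DCs (6 libraries). The subsets were XCR1+ cDC1, T-bet+ cDC2 and T-bet- cDC2, with 3 RNA libraries of each in spleen, 3 of cDC1 and 2 of each cDC2 subset in MLN, and 2 ATAC libraries of each. All cells came from Tbx21RFP-cre mice aged 6 to 10 weeks, sex-matched, which are homozygous for a knock-in of a fluorescent reporter and Cre at the gene for T-bet. Cells gated as CD64- and Ly6C- and positive for CD11c and MHCII were split by CD11b, XCR1 and reporter signal. All groups therefore share this allele, and the subsets are separated by reporter signal and not by a change of genotype. Each RNA library pooled cells from 2 mice. The methods call the replicates biological, but the labels name no animals or pools, so the p-values measure the spread between these libraries, which may in part be technical. The labels call the RFP+ cells T-bet+, while 1 sentence of the methods gives the opposite. The labels were followed, and Tbx21, the gene for T-bet, stood at 21.7 ± 4.02 CPM (counts scaled to the library total, as CPM, SD, n = 3) in splenic T-bet+ cDC2 and at 1.40 ± 1.05 CPM (n = 3) in splenic T-bet- cDC2.

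C-type lectin receptors bind sugars and lipids on microbes, fungi and damaged cells. The DCIR receptors of this cluster (Clec4a2, Clec4a3, Clec4a4 and Clec4a1) belong to the Dcir group, in which Dcir itself and DCIR2 carry an inhibitory ITIM motif that recruits phosphatases. The other members have no signalling motif of their own: Clec4b1 (DCAR), Clec4n (Dectin-2) and Clec4e (Mincle) pair with the Fc receptor gamma chain, encoded by Fcer1g, and signal through Syk and Card9, and Clec4d (MCL) partners Clec4e. DCIR2, the antigen of the 33D1 antibody, is a classical surface marker of splenic cDC2.

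Library totals on genes ran from 20993220 to 29006549 counts for RNA, and on windows from 7270164 to 10081555 counts for ATAC-seq. Markers of cDC1, cDC2 and T-bet+ cDC2 followed the labels. The summed level of 7 cDC1 markers was 3219 to 6470 CPM in cDC1 and 146 to 636 CPM in cDC2 libraries. That of 5 cDC2 markers was 25.8 to 61.2 CPM and 566 to 3335 CPM. The sum of 4 T-bet+ cDC2 markers was 428 to 473 CPM in splenic T-bet+ and 23.1 to 37.1 CPM in splenic T-bet- cDC2. The sum of 4 T-bet- cDC2 markers was 470 to 590 CPM in splenic T-bet- and 10.3 to 19.7 CPM in splenic T-bet+ cDC2. It was not particular to T-bet- cDC2, with 195 to 248 CPM in splenic and 98.8 to 232.9 CPM in MLN cDC1. The splenic RNA libraries fell into 2 classes by the correlation of a gene's level with the GC content of the most GC-rich 100 bases of its transcript. The class with the positive correlation held 3 of 3 T-bet+, 2 of 3 cDC1 and 1 of 3 T-bet- libraries. The MLN libraries also varied, with correlations of -0.313 and 0.225 in T-bet- and -0.06 and -0.22 in T-bet+ cDC2. In MLN cDC1 they were -0.034, 0.202 and 0.249. The methods name 2 sequencers without saying which libraries ran on which, so tissue and any processing batch cannot be told apart. Within spleen the GC class was tied to the cDC2 subsets, so class and subset can be told apart only in part. T-bet- replicate 3, which shared the class of the T-bet+ libraries, was the lowest of its group for every member but Clec4e. It lay above every splenic T-bet+ library for Clec4a1, Clec4a3, Clec4b1, Clec4d and Clec4e. These are bulk samples, in which fewer cells of a type and less RNA per cell cannot be told apart.

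Macrophage and monocyte markers moved with the cDC2 subsets. The summed level of 7 macrophage markers was 883 to 1223 CPM in splenic T-bet- cDC2 and 420 to 504 CPM in splenic T-bet+ cDC2, and that of 6 monocyte markers was 161 to 406 CPM and 11.8 to 19.9 CPM. In MLN the macrophage sum was 1099 to 1838 CPM in T-bet- and 344 to 391 CPM in T-bet+ cDC2, and the monocyte sum was 227 to 291 CPM and 4.18 to 14.9 CPM. The monocyte sum was not particular to T-bet- cDC2. In cDC1 it was 87.4 to 198.5 CPM in spleen and 79.7 to 166.9 CPM in MLN, above T-bet+ cDC2. The macrophage sum in cDC1 was 96.2 to 180.1 CPM in spleen and 71.0 to 204.2 CPM in MLN, below T-bet+ cDC2. No marker of either list was at 0 in all libraries of a cDC2 group, except F13a1 in MLN T-bet+ cDC2. Fcgr1, the gene for the CD64 that the sort gated out, was at 7.04 ± 1.46 CPM in splenic T-bet- and 0.636 ± 0.211 CPM in splenic T-bet+ cDC2 (SD, n = 3 each). The paper reports higher Csf1r, Ccr2 and Cx3cr1 in T-bet- than in T-bet+ cDC2, with similar Zbtb46. It states that the accepted monocyte signature does not tell T-bet- cDC2 from monocytes. Ccr2 is among the 6 monocyte markers summed here. The part of the macrophage and monocyte markers in the results on the lectins was not tested.

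The 8 members had reads in splenic cDC2, only weakly for Clec4d and, in T-bet+ cDC2, for Clec4e. In splenic cDC1 all but Clec4n were nearly silent. Clec4n stood there at 4.39 CPM on average, above Clec4e in splenic T-bet+ cDC2 at 3.16 CPM. Of the 8, 4 were lower in one of the cDC2 subsets. In spleen, Clec4a3, Clec4b1, Clec4e and Clec4a1 were lower in T-bet+ than in T-bet- cDC2. Clec4a4 had higher values in all T-bet+ libraries, by a difference that did not pass the test, and the values of Clec4a2 overlapped between the subsets. By edgeR's quasi-likelihood test with Benjamini-Hochberg adjustment over all genes, 4 of 8 members were called at an adjusted p under 0.05, all 4 lower in T-bet+ cDC2, and 5.38% of the 14377 genes tested were called. The median log2 fold change (T-bet+ over T-bet-) of the members was -2.06, beside -0.01 over all genes tested.

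**Figure D1:**
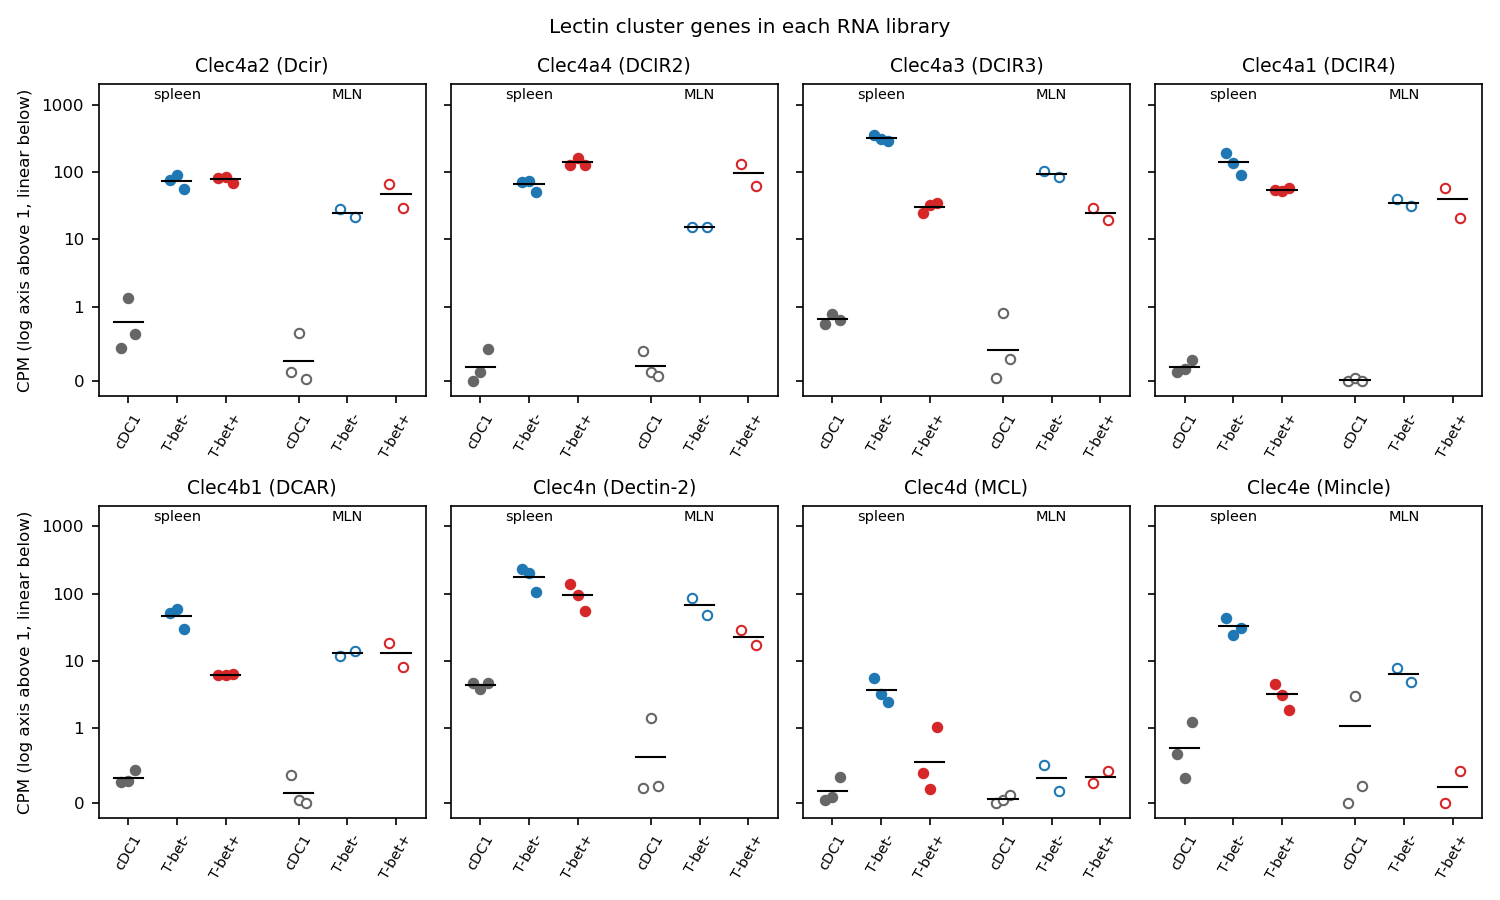
CPM of the 8 lectin genes in each RNA library, with spleen as filled and MLN as open points, cDC1 in grey, T-bet- cDC2 in blue and T-bet+ cDC2 in red, and a bar at each mean (axis logarithmic above 1 and linear below). All members stood higher in splenic T-bet- cDC2 than in splenic cDC1, and Clec4a3, Clec4a1, Clec4b1, Clec4d and Clec4e were lower in every splenic T-bet+ than in every splenic T-bet- library.

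Among the DCIR genes, Clec4a3 (DCIR3) had the largest fitted difference between the splenic cDC2 subsets. It stood at 356, 312 and 289 CPM in the 3 T-bet- libraries and at 24.6, 32.0 and 34.1 CPM in the 3 T-bet+ libraries. The subsets did not overlap, and the log2 fold change was -3.40 (SE 0.21, adjusted p = 5.05e-05). In MLN the values were 102 and 85.3 CPM in T-bet- and 29.3 and 19.1 CPM in T-bet+ cDC2, also without overlap.

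Clec4a4 (DCIR2) had higher values in T-bet+ cDC2. It stood at 72.2, 72.5 and 51.2 CPM in splenic T-bet- and at 129, 161 and 128 CPM in splenic T-bet+ cDC2. Every T-bet+ library lay above every T-bet- library, but the log2 fold change of 1.10 ± 0.49 had an adjusted p of 0.275, and it passed under DESeq2 (adjusted p = 0.0416), with no filter on low counts (0.0356) and with cDC1 left out of the fit (0.0335); over all alternatives for this gene it stayed above 0.

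Clec4a1 (DCIR4) was lower in splenic T-bet+ cDC2. It stood at 192, 136 and 91.3 CPM in T-bet- and at 53.4, 52.9 and 57.5 CPM in T-bet+ cDC2. The libraries did not overlap, and the log2 fold change was -1.35 ± 0.30 (adjusted p = 0.0334). The call was lost when any T-bet+ library, or T-bet- replicate 1 or 2, was left out (adjusted p between 0.0899 and 0.138), and with the GC class as a term (log2 fold change -0.72, adjusted p = 0.162). The 1 T-bet- library that shared the GC class of the T-bet+ libraries, replicate 3, was the lowest of its group and lay above all T-bet+ libraries.

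Clec4a2, which encodes Dcir itself, had reads in both subsets. It stood at 75.0, 88.8 and 55.3 CPM in splenic T-bet- and at 81.0, 83.0 and 69.1 CPM in splenic T-bet+ cDC2. The ranges overlapped, and the log2 fold change was 0.09 ± 0.34 (adjusted p = 0.915).

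Of the receptors that pair with the gamma chain, Clec4b1 (DCAR) was lower in splenic T-bet+ cDC2. It stood at 52.2, 58.2 and 29.3 CPM in T-bet- and at 6.10, 6.19 and 6.35 CPM in T-bet+ cDC2. The T-bet+ values lay close together and far below the lowest T-bet- library, with a log2 fold change of -2.90 ± 0.32 (adjusted p = 0.000955). Clec4n (Dectin-2), a receptor for fungal mannans, stood at 228, 203 and 104 CPM in T-bet- and at 137, 95.1 and 55.8 CPM in T-bet+ cDC2. Its ranges overlapped, with a log2 fold change of -0.90 ± 0.37 (adjusted p = 0.234).

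Clec4e (Mincle), a receptor for mycobacterial cord factor and for a protein of dying cells, stood at 43.7, 23.9 and 30.7 CPM in T-bet- and at 4.52, 3.15 and 1.83 CPM in splenic T-bet+ cDC2. The subsets did not overlap, with a log2 fold change of -3.37 ± 0.50 (adjusted p = 0.0054). Clec4d (MCL) was the scarcest member, with 115, 62 and 64 raw counts in T-bet- and 10, 5 and 25 in T-bet+ cDC2. Its libraries did not overlap, but the log2 fold change of -2.77 ± 0.80 did not pass (adjusted p = 0.0854). It passed under DESeq2 (adjusted p = 0.00752), with no filter on low counts (0.0136) and with the newer dispersion estimate of edgeR (0.0117).

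**Figure D2:**
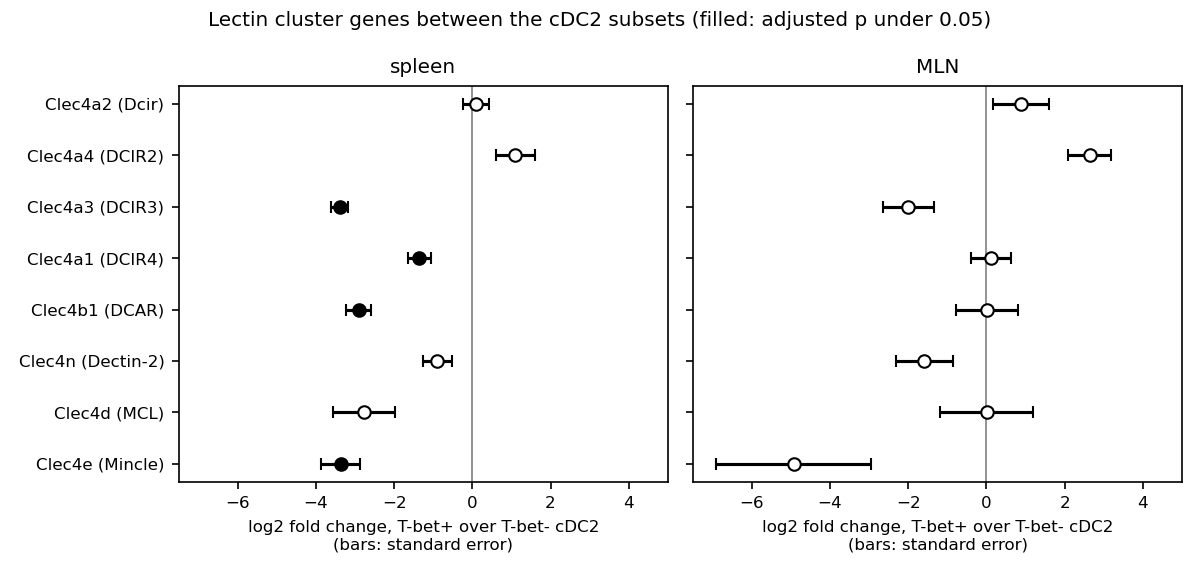
Fitted difference (log2 fold change, positive where T-bet+ cDC2 were higher) with its standard error for the 8 members in spleen and in MLN, filled where the adjusted p was under 0.05. Clec4a1, Clec4a3, Clec4b1 and Clec4e passed in spleen and no member passed in MLN, where Clec4a3, Clec4e and Clec4n lay below 0 and Clec4a2 and Clec4a4 above it by more than their standard errors.

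Against cDC1, nearly all members were higher in splenic cDC2. In T-bet- cDC2 all 8 members were higher than in cDC1, where 15.9% of genes were called, with log2 fold changes from 4.59 ± 0.91 (Clec4d, adjusted p = 0.00754) to 9.49 ± 0.46 (Clec4a1, adjusted p = 3.52e-06). In T-bet+ cDC2 7 of 8 were higher, where 18.2% of genes were called, with called log2 fold changes from 2.13 ± 0.51 (Clec4e, adjusted p = 0.0174) to 9.58 ± 0.75 (Clec4a4, adjusted p = 2.96e-05). Clec4d was the exception, at 40 raw counts over the 3 T-bet+ libraries and 10 over the 3 cDC1 libraries, a ratio of 3.67 after scaling (95% interval 1.80 to 8.22 for counting error only, adjusted p = 0.198 over libraries). The Clec4e call was lost without cDC1 replicate 1 or 2 or without T-bet+ replicate 1 (adjusted p between 0.0668 and 0.0742). Neutrophil markers also differed in these comparisons. The summed level of 8 such markers was 74.4 to 84.8 CPM in splenic T-bet+ and 70.3 to 117.5 CPM in splenic T-bet- cDC2. In splenic cDC1 it was 18.2 to 33.3 CPM. The part of neutrophil transcripts in these differences was not tested.

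The cDC1 libraries held few reads of most members. In spleen, Clec4a4 had 0, 3 and 9 raw counts, Clec4a1 had 3, 4 and 6, and Clec4b1 had 7, 7 and 9. Clec4n was the member with the highest level per length there, and its level was 4.74, 3.75 and 4.69 CPM. The summed length-scaled level of the 8 members, in CPM per kilobase of annotated exons, was 4.52 to 5.90 in splenic cDC1, 479 to 750 in splenic T-bet- and 299 to 370 in splenic T-bet+ cDC2, with no overlap between the subsets.

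Per length, the leading member differed between the cDC2 subsets. In splenic T-bet- cDC2, Clec4a3 led at 240 ± 25.7 CPM per kilobase (SD, n = 3), followed by Clec4n at 126 ± 46.3, Clec4a1 at 89.6 ± 32.3 and Clec4a4 at 84.2 ± 15.7. Clec4a3 stood clear of the next member, and Clec4n, Clec4a1, Clec4a4 and Clec4b1 overlapped with their neighbours in that order. In splenic T-bet+ cDC2, Clec4a4 led at 180 ± 24.5 CPM per kilobase, followed by Clec4n at 67.5 ± 28.6 and Clec4a1 at 35.1 ± 1.62, each clear of the next.

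Of the summed length-scaled level, Clec4a4 took 47.3% to 56.2% in splenic T-bet+ and 12.4% to 13.9% in splenic T-bet- cDC2. Clec4a3 took 5.27% to 8.59% and 35.1% to 45.4%. The ratio of Clec4a4 to Clec4a3 per length was 6.40 to 8.97 in the splenic T-bet+ libraries and 0.304 to 0.397 in the splenic T-bet- libraries. In MLN it was 5.60 to 7.75 and 0.258 to 0.304. This ratio was chosen after the values were seen and is given without a test.

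**Figure D3:**
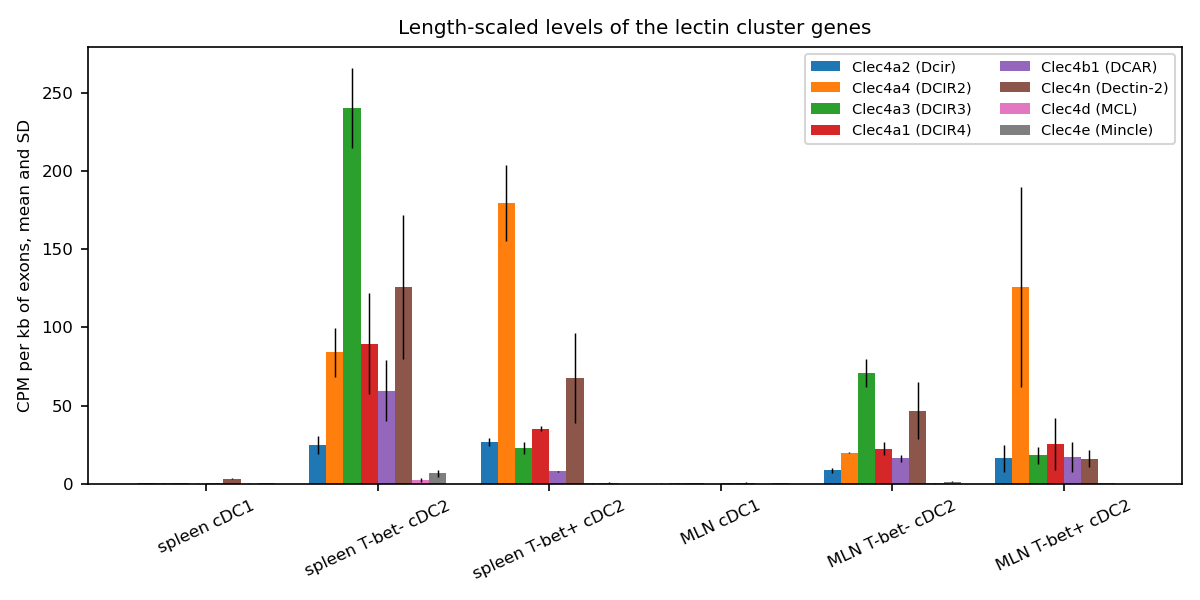
Mean level of each member in CPM per kilobase of exons with its SD, for the 6 groups of RNA libraries (3 libraries each in spleen and in MLN cDC1, 2 in each MLN cDC2 group). Clec4a3 is the tallest bar in both T-bet- groups, at 240 in spleen and 70.6 in MLN, Clec4a4 is the tallest in both T-bet+ groups, at 180 and 126, and the cDC1 bars lie close to 0.

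In MLN the cDC2 subsets showed the same leading members, but none of the genes tested was called between them by edgeR. By its quasi-likelihood test 0 of 8 members were called between T-bet+ and T-bet- cDC2 (0% of 15298 genes). Of the 8, 3 had an unadjusted p under 0.05, beside 1444 of the 15298 genes. DESeq2 called 1, Clec4a4 (adjusted p = 0.000332). With no filter on low counts 4 were called. The shares of all genes called in these alternative fits are not given here. Clec4a4 stood at 15.4 and 15.2 CPM in T-bet- and at 133 and 62.5 CPM in T-bet+ cDC2. Its log2 fold change was 2.64 ± 0.54 (adjusted p = 0.239). That of Clec4a3 was -1.99 ± 0.66 (adjusted p = 0.397).

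Clec4e in MLN stood at 7.94 and 4.86 CPM in T-bet- cDC2, and T-bet+ cDC2 held 0 and 11 raw counts in 2 libraries. Clec4n stood at 84.8 and 48.0 CPM in T-bet- and at 28.2 and 17.2 CPM in T-bet+ cDC2, without overlap (log2 fold change -1.60 ± 0.73, adjusted p = 0.558). Clec4b1 stood at 11.6 and 14.0 CPM in T-bet- and at 18.5 and 8.02 CPM in T-bet+ cDC2, and Clec4a1 at 39.4 and 30.8 and at 57.8 and 20.9 CPM. Both genes overlapped between the subsets.

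The MLN T-bet+ libraries differed from each other. Replicate 1 was higher than replicate 2 for 6 of 8 members, and the exceptions were Clec4d and Clec4e. The summed level of 5 mature migratory DC markers was 2885 CPM in replicate 1 and 10670 CPM in replicate 2, while both T-bet- libraries had 11920 and 12960 CPM. A like split was seen in MLN cDC1, with 4064 CPM in replicate 1 and 14800 and 14430 CPM in the others. No MLN T-bet- library carries the number 1 in its deposited name. The part of these markers in the MLN results was not tested.

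The change of the subset difference between tissues was tested directly. For the difference in log2 fold change (T-bet+ over T-bet-, spleen minus MLN), 0 of 8 members were called by edgeR's quasi-likelihood test (0.00595% of 16795 genes). Of the 8, 3 had an unadjusted p under 0.05, beside 847 of the 16795 genes. DESeq2 called 1, Clec4b1 (adjusted p = 0.0155). Clec4b1 had a difference of -2.95 ± 0.84 (adjusted p = 0.779 in edgeR). Both Clec4b1 and Clec4a1 passed in spleen and not in MLN. For Clec4b1 the call of a difference between the tissues depended on the test used, and for Clec4a1 neither test called one.

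Against MLN cDC1, 6 of 8 members were higher in T-bet+ cDC2 (6.22% of genes called) and 6 of 8 in T-bet- cDC2 (5.79%). In both comparisons the exceptions were Clec4d and Clec4e. The call of Clec4b1 in T-bet- cDC2 was lost without either T-bet- library (adjusted p = 0.0571 and 0.0596). Clec4a1 had 1 raw count over the 3 MLN cDC1 libraries and 2078 over the T-bet+ libraries, a ratio of 2975 after scaling (95% interval 533 to 117600, counting error only). Clec4d had 4 raw counts over the 3 cDC1 libraries, 18 over the T-bet+ and 19 over the T-bet- libraries.

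MLN cDC1 replicate 2 stood apart for several members. Clec4e had 68 raw counts there and 0 and 6 in the other libraries, Clec4a3 had 21 against 1 and 8, and Clec4n had 33 against 5 and 6. The summed level of 8 neutrophil markers was 14.0 CPM in that library and 0.284 and 0 CPM in the others. Without it, the log2 fold change of Clec4e between MLN T-bet+ cDC2 and cDC1 was 0.91 (adjusted p = 0.827) in place of -2.23 (adjusted p = 0.507). Without it, 6 members were called in each MLN comparison with cDC1. The part of neutrophil transcripts was not tested.

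Between tissues, members were higher in spleen than in MLN where they were called. In T-bet- cDC2 2 members passed (5.95% of 16795 genes called): Clec4a1 with a log2 fold change, spleen over MLN, of 1.99 ± 0.45 (adjusted p = 0.0207) and Clec4a4 with 2.09 ± 0.58 (adjusted p = 0.0498). All 8 members had positive values, with a median of 1.93 beside 0.04 over all genes. DESeq2 called 6, and its share over all genes is not given here. These calls were sensitive to single libraries: leaving out either MLN T-bet- library, or splenic T-bet- replicate 1 or 2, left 0 members called. Other markers moved between the tissues in T-bet- cDC2: the summed level of 5 cDC2 markers was 2336 to 3335 CPM in spleen and 677 to 914 CPM in MLN, that of 5 mature migratory DC markers 3681 to 5001 and 11920 to 12960 CPM, and that of 8 neutrophil markers 70.3 to 117.5 and 2.79 to 3.16 CPM. Their part in these differences was not tested. In T-bet+ cDC2 edgeR called 0 members (5.09% of genes called), with 2 at an unadjusted p under 0.05, beside 4465 of all 16795 genes. DESeq2 called 2, Clec4e and Clec4n.

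In cDC1 2 members passed between tissues (11.7% of genes called), both from low levels. Clec4n stood at 4.74, 3.75 and 4.69 CPM in spleen and at 0.203, 1.43 and 0.219 CPM in MLN, a log2 fold change of 2.85 ± 0.62 (adjusted p = 0.0122). Clec4a1 had 13 raw counts in spleen and 1 in MLN in all, and its call (adjusted p = 0.0396) was lost in 9 of the fits with 1 library left out. Without MLN cDC1 replicate 3 neither gene was called. 

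The order of the 6 groups differed by member. Clec4a3 and Clec4e were highest in splenic T-bet- cDC2, next in MLN T-bet- cDC2 and then in splenic T-bet+ cDC2, with no overlap between these neighbours. Clec4a4 was highest in splenic T-bet+ cDC2, which overlapped with MLN T-bet+ cDC2, and MLN T-bet- cDC2 was the lowest cDC2 group. Clec4a2 put splenic T-bet+, splenic T-bet- and MLN T-bet+ cDC2 in a row of overlapping groups. Clec4a1, Clec4b1, Clec4d and Clec4n were all highest in splenic T-bet- cDC2, which for Clec4n overlapped with splenic T-bet+ cDC2.

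Clec4b2, a lectin gene inside the span that is no member, had higher levels in splenic cDC1 than in splenic cDC2. It stood at 37.7, 31.7 and 47.7 CPM in splenic cDC1, and at 16, 5 and 3 raw counts in T-bet- and 0, 0 and 3 raw counts in T-bet+ cDC2. Its log2 fold change was -6.69 ± 0.78 in T-bet- cDC2 against cDC1 (adjusted p = 0.000381) and -9.75 ± 0.96 in T-bet+ cDC2 against cDC1 (adjusted p = 0.000118). MLN cDC1 had 4.91, 1.69 and 3.57 CPM, less than in spleen (log2 fold change, spleen over MLN, 3.52 ± 0.62, adjusted p = 0.00419). In MLN it was lower in T-bet- cDC2 than in cDC1 (log2 fold change -3.11 ± 0.65, adjusted p = 0.0327), and the value of -1.31 ± 0.59 in T-bet+ cDC2 did not pass (adjusted p = 0.238). In T-bet+ cDC2 it was lower in spleen than in MLN (-4.92 ± 0.91, adjusted p = 0.0101), where it had 31 and 40 raw counts. Clec4b1 and Clec4b2 are close paralogs, only uniquely aligned reads were counted and the use of strand in counting is not stated in the sources used here, so levels of paralogs in this cluster carry that uncertainty.

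Several signalling partners of the receptors differed between cDC2 and cDC1. Of 14 genes of the gamma chain, Syk and phosphatase pathway, all tested, edgeR called 0 between splenic T-bet+ and T-bet- cDC2. Of the 14, 2 had an unadjusted p under 0.05, beside 2664 of all 14377 genes. As 5.38% of all genes were called there, 0 of 14 lies near the share over all genes and is no result about the list. Against cDC1, 6 were higher and 2 lower in splenic T-bet+ cDC2 (18.2% of all genes called), and 6 higher and 1 lower in splenic T-bet- cDC2 (15.9%). Fcer1g, named after its values were seen, stood at 952 ± 252 CPM in splenic T-bet-, 659 ± 90.5 CPM in splenic T-bet+ cDC2 and 17.5 ± 3.08 CPM in splenic cDC1 (SD, n = 3 each). Its log2 fold change against cDC1 was 5.76 ± 0.29 in T-bet- (adjusted p = 3.86e-06) and 5.23 ± 0.28 in T-bet+ cDC2 (adjusted p = 4.01e-06).

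The Dectin-1 cluster, a neighbouring family of lectin genes on the same chromosome, had 3 genes that were lower in splenic T-bet+ than in T-bet- cDC2. Of its 8 listed genes 7 were tested, and the 3 called stood beside 5.38% of all genes. Against cDC1, 1 was higher and 3 were lower in splenic T-bet+ cDC2 (18.2% of all genes called). In splenic T-bet- cDC2 1 was higher and 1 lower (15.9% of all genes called). In MLN 0 of the 7 were called between the cDC2 subsets by edgeR, beside 0 of all 15298 genes. Of the 7, 2 had an unadjusted p under 0.05, beside 1444 of all genes. Clec12a is also among the T-bet- markers the study chose and Clec9a among the cDC1 markers, so they are not independent evidence of a direction. Clec7a, which encodes the beta-glucan receptor Dectin-1, had a log2 fold change of -2.34 ± 0.37 (adjusted p = 0.00676). Clec12a, an inhibitory receptor for uric acid crystals, had -4.82 ± 0.27 (adjusted p = 4.43e-05), and Clec9a, a receptor for dead-cell actin that marks cDC1, had -5.55 ± 0.72 (adjusted p = 0.00251).

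Across the 16 RNA libraries, genes with the most similar pattern were found for each member. Pearson's r on log2 CPM, over 11100 candidate genes, was 0.997 for Clec4a1 with Klra17, and the next was Itgam, the gene for the CD11b on which cDC2 were sorted. Clec4a2 was closest to Sirpb1b (0.989) and Sirpa (0.986), Clec4a4 to AC171680.3 (0.997) and Klrd1 (0.989), and Clec4b1 to Ms4a6c (0.987) and Pilrb2 (0.977). Clec4a3 had an r of 0.976 with Csf1r, Clec4n was closest to Pilrb1 (0.966) and Slc15a3 (0.965), Clec4e to Cd93 (0.919) and Blvrb (0.913), and Clec4d to Tspan31 (0.909) and G6pdx (0.9). The libraries share their groups, and the gap between cDC1 and cDC2 enters every one of these values, so they are descriptions only.

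The chromatin of the cluster was read in 48 windows of 150 bases, which lay in 27 peaks. They were nearest to Clec4b2 (9 windows), Clec4a2 (8), Clec4d (7), Clec4a3 (6), Clec4a4 (6), Clec4b1 (5), Clec4n (3), Clec4a1 (2) and the pseudogene Gm44147 (2), and none was nearest to Clec4e. Of the 48, 46 passed the filter on low counts, and the 2 that did not lie in an intron of Clec4a4. Between T-bet+ and T-bet- cDC2, 7 windows were called (adjusted p under 0.01, log2 fold change beyond 0.5 either way; 15.2% of those tested, beside 6.28% of all 166547 windows), 1 more open and 6 less open in T-bet+ cDC2. DESeq2 called 3 of the 7 and leaving out T-bet+ replicate 1 left 3, so these calls lie near the limit of 2 libraries per group. Against cDC1, 8 were more and 11 less open in T-bet+ cDC2 (all windows 23.0%), and 8 more and 8 less open in T-bet- cDC2 (all windows 17.9%).

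**Figure D4:**
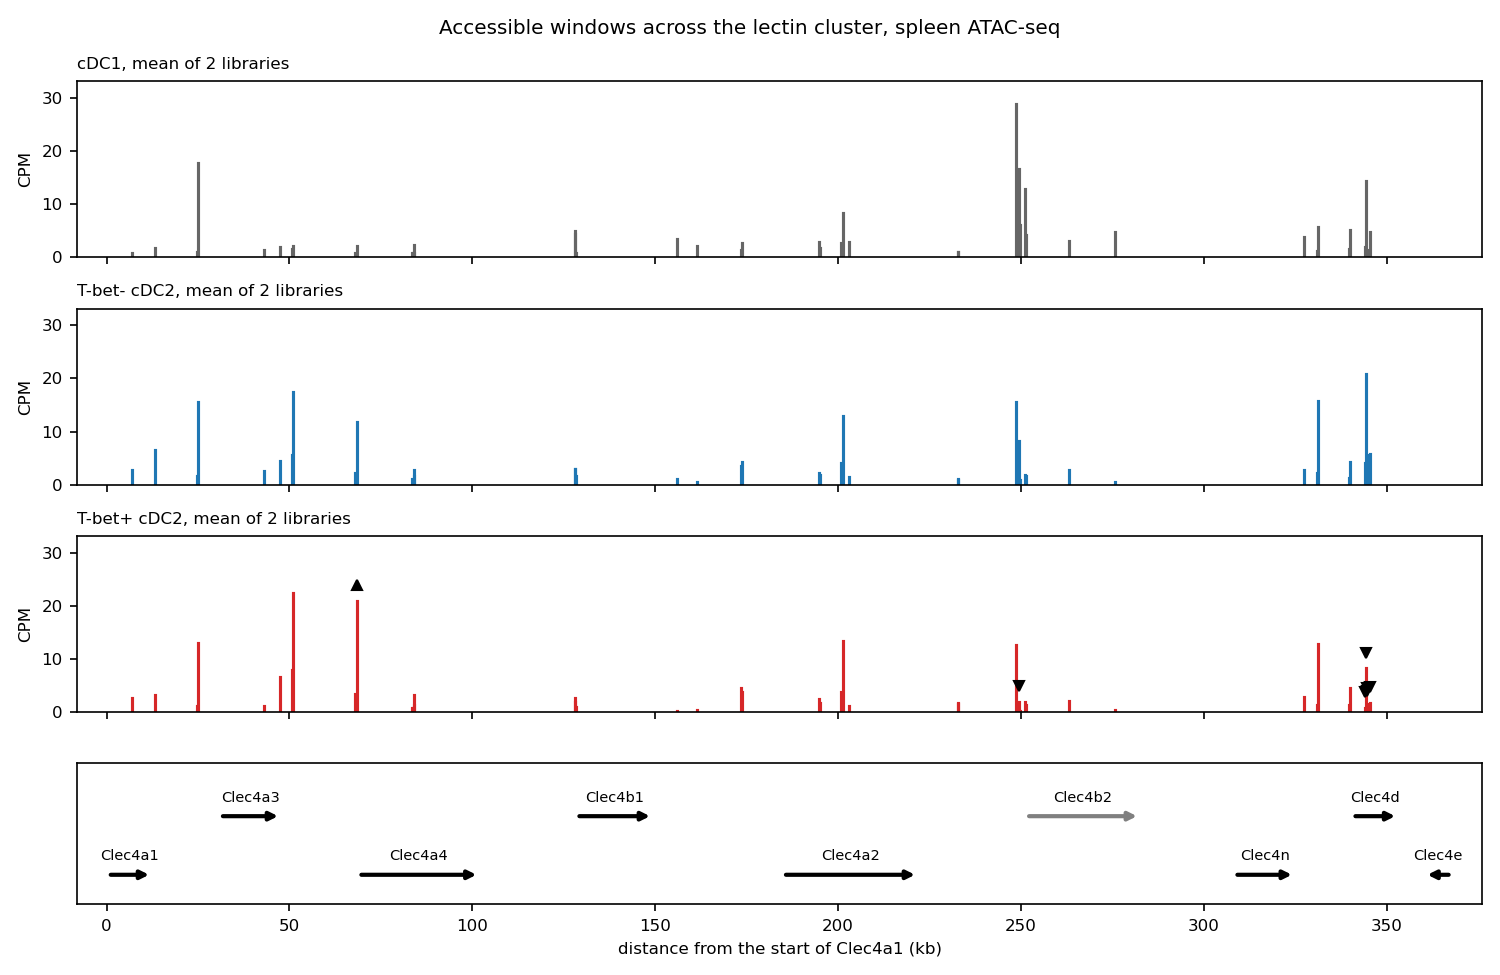
Mean CPM of each of the 48 windows in splenic cDC1, T-bet- and T-bet+ cDC2 (2 ATAC libraries each), against distance in kilobases from the start of Clec4a1, with the genes as arrows in their direction of transcription and Clec4b2 in grey. Triangles mark the 1 window more open (pointing up) and the 6 less open (pointing down) in T-bet+ than in T-bet- cDC2, the latter at Clec4d and Clec4b2.

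The windows that follow are examples of these differences and are printed from the reference genome (GRCm38) on the plus strand of chromosome 6, with matches to 6 searched motifs in capitals. The motifs were Runx TGTGGTT, T-box AGGTGTNA, C/EBP TTGCNNAA, PU.1 GAGGAAGT, a PU.1-IRF composite (GGAA, any 2 bases, GAAA) and an interferon response element (GAAA, any 2 bases, GAAA), each on both strands. The composite and the element share letters and can overlap, though no window of the cluster held both.
Clec4d, between exons and before an internal start, chr6:123265963-123266112, less open in T-bet+ than in T-bet- cDC2, C/EBP match: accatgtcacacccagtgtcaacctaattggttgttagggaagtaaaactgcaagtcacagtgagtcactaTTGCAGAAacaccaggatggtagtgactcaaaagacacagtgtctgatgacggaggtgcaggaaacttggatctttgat
Clec4d, between exons and before an internal start, chr6:123266388-123266537, less open in T-bet+ than in T-bet- cDC2, Runx match: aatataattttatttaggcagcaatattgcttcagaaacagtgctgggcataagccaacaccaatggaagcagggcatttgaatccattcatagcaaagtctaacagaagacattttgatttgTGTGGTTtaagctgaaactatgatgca
Upstream of Clec4b2, chr6:123171154-123171303, least open in T-bet+ cDC2, PU.1 match: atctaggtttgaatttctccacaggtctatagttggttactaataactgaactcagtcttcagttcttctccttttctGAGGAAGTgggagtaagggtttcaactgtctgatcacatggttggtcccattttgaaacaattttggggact
Between Clec4a3 and Clec4a4, chr6:122972847-122972996, more open in both cDC2 subsets than in cDC1, no match: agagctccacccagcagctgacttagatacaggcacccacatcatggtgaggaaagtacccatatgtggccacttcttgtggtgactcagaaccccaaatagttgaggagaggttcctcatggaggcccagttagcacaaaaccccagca
Between Clec4b1 and Clec4a2, chr6:123077717-123077866, more open in cDC1 than in T-bet+ cDC2, T-box and C/EBP matches: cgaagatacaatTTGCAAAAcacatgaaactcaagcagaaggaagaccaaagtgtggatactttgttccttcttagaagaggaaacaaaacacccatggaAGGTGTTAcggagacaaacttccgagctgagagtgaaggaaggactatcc

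Of all 177956 windows, the Runx letters were in 5.23%, T-box in 1.92%, C/EBP in 5.90%, PU.1 in 5.50%, the composite in 3.19% and the interferon response element in 2.39%. In the cluster they were in 4, 1, 5, 5, 3 and 3 of 48 windows. A match is a description of the letters and not of a bound site.

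Of 2 windows at the Clec4a4 promoter, the more open followed the order of the Clec4a4 levels in spleen. It stood at 21.8 and 19.97 CPM in T-bet+, 10.2 and 13.3 CPM in T-bet- cDC2 and 1.66 and 2.48 CPM in cDC1. The 3 subsets did not overlap, with a log2 fold change of 0.82 ± 0.23 (adjusted p = 0.00859) between T-bet+ and T-bet- cDC2, 3.33 ± 0.29 against cDC1 in T-bet+ and 2.51 ± 0.30 in T-bet- cDC2 (adjusted p = 1.7e-15 and 4.02e-10). The call between the cDC2 subsets lay near the threshold and was lost under DESeq2 (adjusted p = 0.0427), with library sizes alone (0.022), with cDC1 left out (0.0104) and without any 1 of the 4 cDC2 libraries (0.0111 to 0.177). The other window, centred 482 bases before the gene, stood at 3.59 and 3.14 CPM in T-bet+, 1.73 and 2.53 CPM in T-bet- cDC2 and 0.950 and 0.784 CPM in cDC1. It was called in T-bet+ cDC2 against cDC1 (log2 fold change 1.93 ± 0.48, adjusted p = 0.000809; 0.0195 under DESeq2), but not in T-bet- cDC2 (adjusted p = 0.0492) or between the cDC2 subsets (0.64 ± 0.40, adjusted p = 0.349).

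Within Clec4d, 5 windows were less open in T-bet+ cDC2, with centres 3707 to 4996 bases after the gene start, 4 of them between exons and the fifth overlapping an annotated exon. An internal transcript start is annotated further into the gene, and relative to it the centres lay at -1903 to -614 bases, so these windows also count as promoter windows within 2000 bases of a start. The most open, at chr6:123265963-123266112, stood at 7.94 and 8.47 CPM in T-bet+, 21.3 and 20.5 CPM in T-bet- cDC2 and 17.3 and 11.5 CPM in cDC1. Between the cDC2 subsets it had a log2 fold change of -1.35 ± 0.23 (adjusted p = 9.4e-06), and those of the other 4 ran from -2.37 ± 0.47 to -1.74 ± 0.38. DESeq2 did not call 3 of these 4 (adjusted p between 0.0147 and 0.0477), and each of the 4 lost its call when a certain cDC2 library was left out (adjusted p between 0.0105 and 0.0614). In T-bet+ cDC2 the most open window and the one overlapping an exon were less open than in cDC1, and the other 3 were not called. Their log2 fold changes were -0.82 ± 0.23 and -1.45 ± 0.39 (adjusted p = 0.00417 and 0.00245; 0.0212 and 0.027 under DESeq2). In T-bet- cDC2 3 of the 5 windows were not called against cDC1. The windows at chr6:123266215-123266364 and chr6:123266388-123266537 were more open in T-bet- cDC2 than in cDC1 (log2 fold change 1.89 ± 0.43 and 2.00 ± 0.45). Neither passed under DESeq2 (adjusted p = 0.0188 and 0.0154). The first had 20 and 4 counts in the cDC1 libraries, and its log2 fold change ran from 1.21 (without cDC1 replicate 2, adjusted p = 0.0684) to 3.37 with 1 library left out. The second lost its call without T-bet- replicate 1 (0.0211) or cDC1 replicate 1 (0.0141).

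These Clec4d windows lay in 2 peaks and share libraries, so they are not independent of each other. The 2 windows before the first base of Clec4d, centred 551 and 373 bases before the gene, were not called in any comparison. All of these windows lie in or before a gene with at most 115 raw counts in any RNA library.

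**Figure D5:**
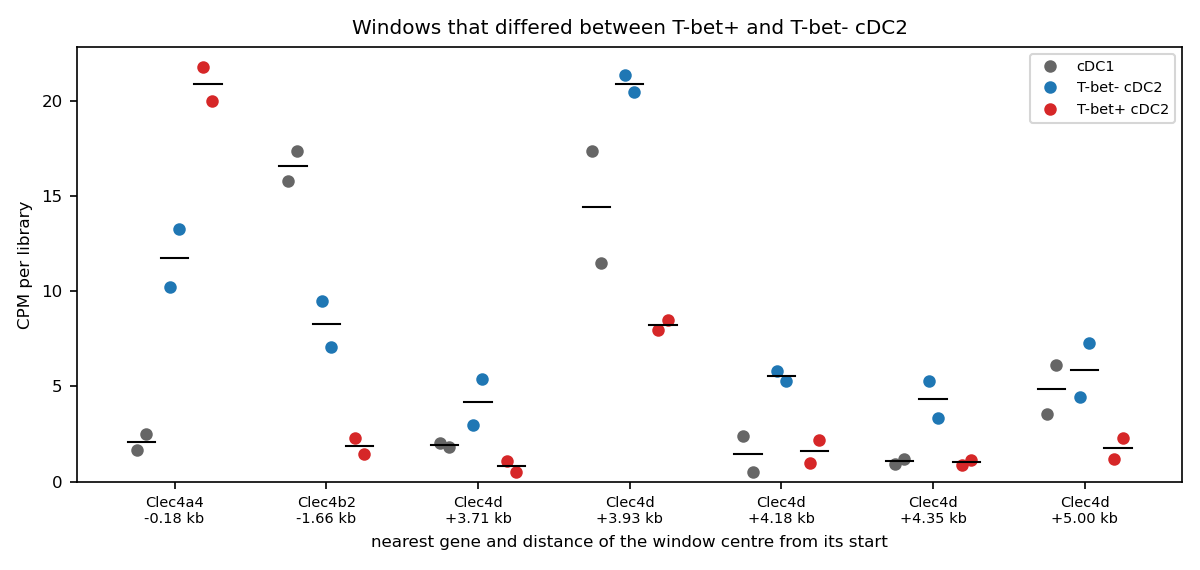
CPM in each ATAC library of the 7 windows called between T-bet+ and T-bet- cDC2, labelled by nearest gene and distance of the window centre from its start in kilobases, with cDC1 in grey, T-bet- cDC2 in blue, T-bet+ cDC2 in red and a bar at each mean. The Clec4a4 window is highest in T-bet+ cDC2 at 21.8 and 19.97 CPM, and the other 6 are lower in both T-bet+ than in both T-bet- libraries.

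At Clec4b2, whose RNA was highest in cDC1, the chromatin was also more open in cDC1. Of the 9 windows nearest to it, 7 were less open in T-bet+ cDC2 than in cDC1 and 6 in T-bet- cDC2. The window over its start, chr6:123172807-123172956, stood at 13.7 and 12.0 CPM in cDC1, 1.73 and 2.03 CPM in T-bet- and 2.07 and 1.57 CPM in T-bet+ cDC2. The window centred 1664 bases before the gene was the only one here called in all 3 comparisons with both cDC2 subsets below cDC1, at 15.8 and 17.4 CPM in cDC1, 9.49 and 7.09 CPM in T-bet- and 2.28 and 1.46 CPM in T-bet+ cDC2 (log2 fold change T-bet+ over T-bet- -2.13 ± 0.32, adjusted p = 8.9e-07). Its call in T-bet- cDC2 against cDC1 (log2 fold change -1.01 ± 0.25, adjusted p = 0.0013) was lost under DESeq2 (0.0126) and without T-bet- replicate 2 (0.0707) or cDC1 replicate 2 (0.0299).

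Between Clec4a3 and Clec4a4, the window at chr6:122972847-122972996 was open in both cDC2 subsets, although Clec4a3 RNA differed between them. It stood at 24.3 and 20.5 CPM in T-bet+, 17.9 and 17.0 CPM in T-bet- cDC2 and 1.43 and 2.87 CPM in cDC1. The log2 fold change against cDC1 was 3.39 ± 0.28 in T-bet+ (adjusted p = 2.77e-16) and 3.03 ± 0.29 in T-bet- cDC2 (adjusted p = 1.08e-13), and between the cDC2 subsets neither this window nor any of the other 5 nearest to Clec4a3 was called. Between Clec4b1 and Clec4a2, the window at chr6:123077717-123077866 stood at 2.97 and 3.79 CPM in cDC1, 1.36 and 0.607 CPM in T-bet- and 0 and 0.209 CPM in T-bet+ cDC2. The T-bet+ values rest on 0 and 2 counts. Both subsets were called less open than cDC1, T-bet+ at -4.81 ± 0.73 (adjusted p = 1.48e-07) and T-bet- at -1.80 ± 0.50 (adjusted p = 0.00412). The T-bet- call was lost under DESeq2 (adjusted p = 0.0854). Between the cDC2 subsets the window was not called (adjusted p = 0.0172).

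Several members that differed in RNA had no called window between the cDC2 subsets. This held for Clec4a1 (2 windows tested), Clec4a3 (6) and Clec4b1 (5), while Clec4e had none to test. The 3 windows at the Clec4b1 start were not called in any comparison. One of the windows of Clec4a1, at chr6:122934948-122935097, stood at 3.92 and 2.61 CPM in T-bet+ and at 5.05 and 7.90 CPM in T-bet- cDC2, without overlap but with an adjusted p of 0.0418. It was more open in T-bet- cDC2 than in cDC1 (log2 fold change 1.85 ± 0.38, adjusted p = 8.74e-05).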

How the data were processed

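RNA-seq libraries of sorted mouse DCs (16) and ATAC-seq libraries of splenic DCs (6) were analysed. The authors aligned RNA reads with HISAT2 2.1.0 and SAMtools 1.9, and deposited raw counts of uniquely aligned reads per gene. For ATAC-seq they used Bowtie2 2.2.5 and MACS2 2.1.1.20160309 on all replicates together, and deposited counts in windows of 150 bases around peak summits (mm10). The deposited peak list also holds a score and the summit list a −log10 p or q value from the peak caller, of which only the positions were used here. No column of per-sample values was left unused (0).

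Depth was 20993220 to 29006549 counts per RNA library and 7270164 to 10081555 per ATAC library, and counting intervals cover counting error only. Counts were filtered with filterByExpr, scaled by TMM and tested with edgeR 4.0.16 (quasi-likelihood, Benjamini-Hochberg over all features) in R 4.3.3, per tissue, over all RNA libraries for tissue comparisons, and over all ATAC libraries. SE is the absolute log2 fold change over the square root of F. DESeq2 1.42.0 was an alternative. Levels are TMM-scaled CPM over the 16 RNA libraries, divided by exon length for CPM per kilobase. Fits were tested on simulated data.

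Members and lists were chosen with earlier results of these data known. Named genes were the members, Clec4b2, list genes called between the splenic cDC2 subsets, and the 2 genes most like each member among those with at least 50 normalized counts. By the deviations from group means, replicate numbers paired splenic T-bet+ cDC2 with splenic cDC1 (r between 0.111 and 0.17 in 3 of 3 pairs, a hint from the data and not the labels) and no other groups with 3 pairs. Sequences and motifs were read from the GRCm38 reference. RefSeq promoters matched 6 of the 8 members and were not printed. A gene similar to Clec4a3 and the sequence of the window at the Clec4a4 promoter are not reported here.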

Additional observations from a re-analysis of the deposited data

How the results depend on the processing

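Of 229 recomputed counts of called members or windows, 50 moved by over 1.5 times, and 21 of 1398 recomputed member values changed sign, of which 14 came with 1 library left out. The cause was not tested, except where fewer genes or windows were tested. With at least 10 counts in every library, 3 members remained to test in spleen, with 1 called between the cDC2 subsets and 3 in each comparison with cDC1, and none in MLN or between tissues (0 called). With no filter on low counts, 4 were called between the MLN cDC2 subsets, 2 between tissues in T-bet+ and 8 in T-bet- cDC2, and 1 for the difference between tissues. DESeq2 called 1, 2, 6 and 1 in these comparisons. The newer dispersion estimate, chosen after seeing the data, called 1 between tissues in cDC1, 1 in T-bet+ and 6 in T-bet- cDC2, and DESeq2 size factors 1 in T-bet- cDC2. The share of all genes that each of these alternatives called is not given here. Their counts can therefore not be set against the genes as a whole. For windows, DESeq2 called 3 between the cDC2 subsets, 11 in T-bet+ and 9 in T-bet- cDC2 against cDC1, whole peaks (26 tested) gave 4 between the subsets, and a narrower locus (24 tested) 6 and 5 against cDC1.

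With 1 library left out, counts ran from 0 to 3 between tissues in cDC1, 0 to 1 in T-bet+ and 0 to 5 in T-bet- cDC2. Windows called ran from 3 to 7 between the cDC2 subsets, 12 to 19 in T-bet+ and 10 to 17 in T-bet- cDC2 against cDC1. An arm left with 1 library is assumed to vary like the other groups. Log2 fold changes that changed sign ran from -0.16 to 0.27 for Clec4a2 between the splenic cDC2 subsets, and between those of MLN from -0.72 to 0.70 for Clec4a1, -0.65 to 0.52 for Clec4b1 and -0.59 to 1.14 for Clec4d. They ran from -7.75 to 0.91 for Clec4e in MLN T-bet+ cDC2 against cDC1, and between tissues from -1.64 to 0.86 for Clec4a4 and -1.08 to 2.62 for Clec4e in cDC1, and from -0.073 to 1.34 for Clec4a1 and -0.23 to 1.05 for Clec4d in T-bet+ cDC2. For Clec4d in MLN, the newer estimate gave -0.015 and the fit of the compared subsets alone 0.

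Of same-numbered pairs, 3 of 9 in spleen, 2 of 6 in MLN and 0 of 6 in ATAC-seq had a correlation above 0.1, and these 5 all joined T-bet+ cDC2 and cDC1 (0.111 to 0.17 in spleen, where 6 of 6 libraries correlated best with their own number, and 0.339 and 0.411 in MLN). In splenic T-bet+ cDC2 against cDC1, the replicate block over all 9 libraries changed no member's call. That block also covers T-bet- cDC2, whose same-numbered pairs with cDC1 had correlations of -0.419, -0.098 and -0.488. It therefore cannot show what pairing T-bet+ cDC2 with cDC1 alone would change. No block result for MLN T-bet+ cDC2 against cDC1 is given here. With a replicate block, 3 members were called between the splenic cDC2 subsets and 1 between tissues in T-bet- cDC2. The block gave -0.02 for Clec4a1 and -0.175 for Clec4b1 between the MLN subsets (-0.943 and -1.016 with the number in the library name as the block), and -0.1 for Clec4d between tissues in T-bet+ cDC2. With 2 or 3 libraries per group and few reads of Clec4d, small differences could not be detected.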
